A study of Mus musculus with 6 samples.

Results

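The genes described here are the 9 that write, keep and remove DNA methylation in mouse cells: Dnmt1, Uhrf1, Dnmt3a, Dnmt3b, Dnmt3l, Tet1, Tet2, Tet3 and Tdg. They were chosen by name, and each matched 1 of the 57170 gene identifiers in the deposited table. Polyadenylated RNA of whole testes taken at postnatal day 5 was sequenced in 6 libraries. The WT group holds 2 wild-type libraries (WT-1 and WT-2), and the sKO group holds 4 libraries (sKO-1 to sKO-4) from mice with a conditional knockout of Mdm2, the ubiquitin ligase that restrains p53, in germ cells before meiosis. The labels name neither the Cre driver nor the strain. Nothing in them tells whether each library came from an animal of its own, so every p-value refers to the spread among libraries, which may be technical.

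DNA methylation is the addition of a methyl group to cytosine, mostly where a guanine follows (CpG). DNMT1, brought to newly replicated DNA by UHRF1, copies the pattern to the new strand. DNMT3A and DNMT3B set new methylation, helped in fetal male germ cells by the inactive cofactor DNMT3L. The dioxygenases TET1, TET2 and TET3 oxidise the methyl group, and the glycosylase TDG cuts out the oxidised base for repair. Male germ cells gain their methylation pattern before birth, and after birth spermatogonia must keep it as they divide among Sertoli cells and other somatic cells.

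Summed expected counts were 17.99 to 18.39 M (mega) per library. Mdm2 was at 67.2 and 75.9 CPM in the WT libraries and at 37.6 to 47.3 CPM in the sKO libraries, where CPM are counts scaled for library size, corrected by TMM. All 16 germ cell markers examined were detected. Their summed level was 1011 CPM in WT-1, 731.3 in WT-2 and 197.3 to 284.4 in the sKO libraries. In whole testis, fewer cells of a type and less RNA per cell cannot be told apart. The libraries also fell into a subset 1 of WT-1 with sKO-1 and sKO-2, and a subset 2 of WT-2 with sKO-3 and sKO-4, which the first principal component separated with 38.1% of the variance. The labels name no batch for them. Across all 17707 genes tested, 408 were lower and 22 higher in sKO (edgeR quasi-likelihood test, adjusted p under 0.05), with a median log2 fold change of 0.03.

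Short stretches of promoter sequence are shown first for the genes whose levels differed most between the groups, and for the gene with the lowest level. They come from the RefSeq table of the build GRCm38.p6, which is not the build of the counts (mm39) and serves here only for sequence. All 9 genes matched, with 16 annotated start sites in all, and the 250 bases before each were searched on both strands. The E2F-type motif was taken as TTTGGCGC, TTTCCCGC, TTTGCCGC or TTTCGCGC. It is the kind of site known from many genes of S phase. It lay before 2 of the 16 start sites, 1 of Dnmt1 and 1 of Uhrf1, and before 1.86% of all 32851 start sites in the table. Each form of the motif contains a CpG, and the matched stretches hold 26 CpG in Dnmt1 and 30 in Uhrf1, against a median of 6. Start sites of like CpG content were not compared. Each match is shown with its neighbours, motif in capitals, the first at chr9:20952824-20952853 on the minus strand and the second at chr17:56304117-56304146 on the plus strand.
Dnmt1: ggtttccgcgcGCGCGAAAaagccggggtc
Uhrf1: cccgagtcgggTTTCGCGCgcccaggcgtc
In Dnmt1 the letters are those of the opposite strand of TTTCGCGC. A match describes the letters only and is not a measured binding site.

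Dnmt3b, the gene with the largest fall of the 8 tested, has 1 start site in that table, and the 250 bases before it hold 21 CpG. Of all start sites, 83.7% have fewer. The first annotated start site of Dnmt3l has 5, below the median of 6. CpG, the substrate of these enzymes, are in capitals in both, at chr2:153649199-153649448 and chr10:78042037-78042286, each on the plus strand.
Dnmt3b: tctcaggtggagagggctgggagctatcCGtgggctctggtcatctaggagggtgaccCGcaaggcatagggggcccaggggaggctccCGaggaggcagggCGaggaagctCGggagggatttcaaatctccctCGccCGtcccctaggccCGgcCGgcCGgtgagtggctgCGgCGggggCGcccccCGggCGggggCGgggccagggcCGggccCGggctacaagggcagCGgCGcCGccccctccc
Dnmt3l: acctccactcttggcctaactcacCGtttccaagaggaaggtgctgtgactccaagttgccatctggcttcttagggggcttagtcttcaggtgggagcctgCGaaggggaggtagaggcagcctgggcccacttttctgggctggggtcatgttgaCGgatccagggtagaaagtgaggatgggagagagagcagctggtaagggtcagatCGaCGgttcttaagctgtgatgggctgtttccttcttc
Neither stretch holds an E2F-type match, and none of the 16 stretches holds a p53 half-site, which 7.13% of all have. Methylation itself was not measured.

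Of the 9 genes, 8 had enough counts to be tested. Dnmt1 and Dnmt3b fell in sKO testes, 2 of the 8, where 2.30% of all genes tested were called lower. None was called higher, where 0.124% of all genes were, and 0 of the 8 were higher at an unadjusted p under 0.05 or with DESeq2. The groups did not overlap for 4 of the 8: Dnmt1, Uhrf1 and Dnmt3b were below WT in every sKO library, and Tet3 was above. Among all genes tested, 13.3% were below and 9.79% above without overlap. The median log2 fold change of the 8 was 0.07. The plot of the level in each library shows these values.

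**Figure D1:**
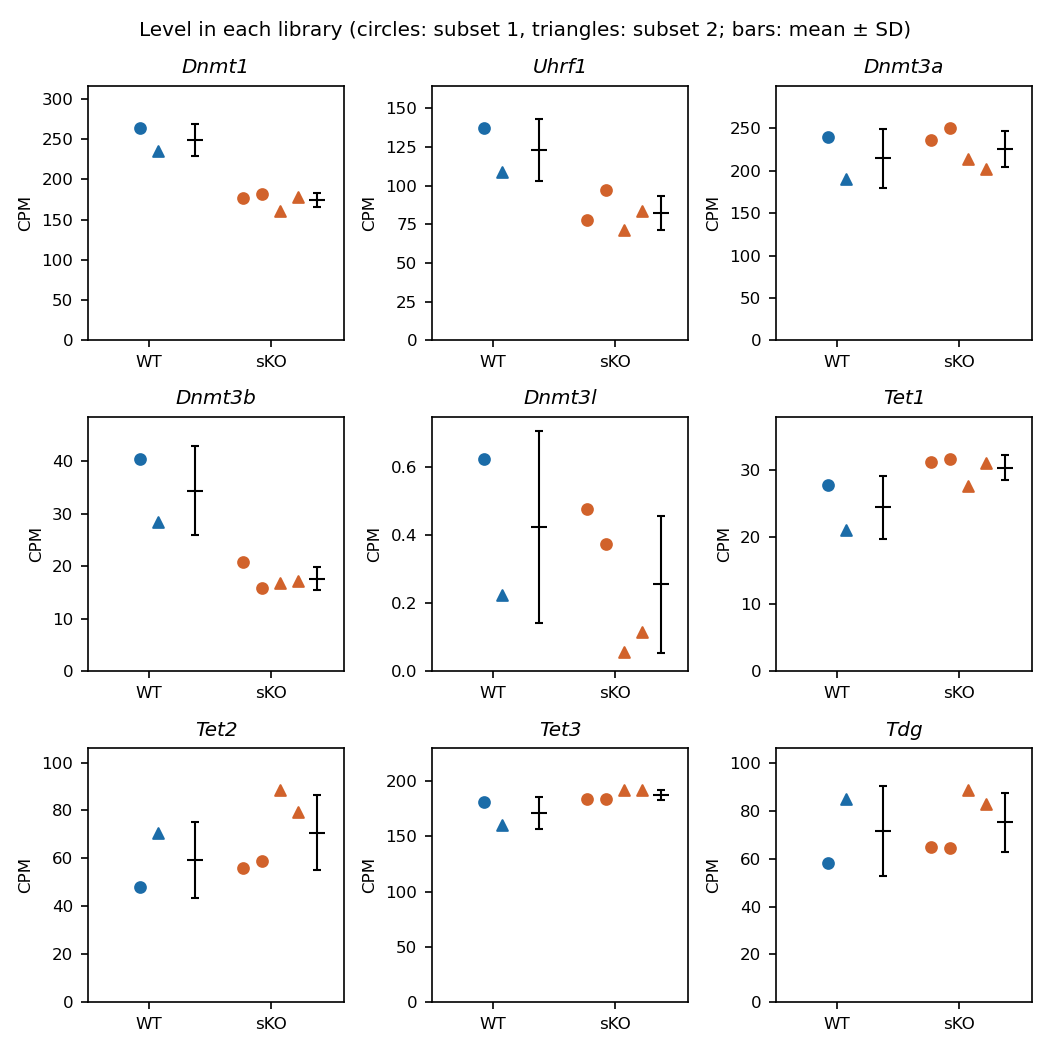
Level of each gene in CPM (vertical axis, from 0) in the 2 WT and 4 sKO libraries; circles are libraries of subset 1, triangles those of subset 2, and the bars beside them the mean ± SD. For Dnmt1, Uhrf1 and Dnmt3b the 4 sKO points lie below both WT points, while Tet2 and Tdg are higher in the triangles of both groups.

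Among the maintenance genes, Dnmt1, the methyltransferase that copies methylation after replication, was at 263 and 235 CPM in WT-1 and WT-2. The values in sKO-1 to sKO-4 were 176, 181, 161 and 179 CPM. Every sKO library was below both WT libraries, and the highest sKO value stayed clear of the lower WT value. The group means were 249 ± 19.9 CPM (SD, n = 2) and 174 ± 9.16 CPM (SD, n = 4). The log2 fold change was −0.52, with an SE of 0.09 and an edgeR adjusted p = 0.0328. Within the subsets the log2 difference was −0.56 and −0.47. The call ended without any 1 of the 6 libraries, with adjusted p from 0.0556 (without WT-2) to 0.312 (without WT-1), and with library sizes set to the Sertoli cell genes (0.0531, with a larger log2 fold change of −0.69).

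Uhrf1, which recognises CpG methylated on 1 strand and recruits DNMT1, was at 137 and 109 CPM in WT-1 and WT-2, and at 78.2, 97.3, 71.2 and 83.4 CPM in sKO-1 to sKO-4. The groups did not overlap, but WT-2 and sKO-2 lay close together. The means were 123 ± 19.8 CPM (SD, n = 2) and 82.5 ± 11.02 CPM (SD, n = 4). The log2 fold change of −0.58 (SE 0.14) was of similar size to that of Dnmt1 but did not pass the test (edgeR adjusted p = 0.104). It did pass with DESeq2 (adjusted p = 0.0220), which called 2.0% of 32531 genes lower. It also passed without a count filter in edgeR (adjusted p = 0.0349), which called 1.66% of 32550 genes lower. Both bases include genes too low for the reported test, which called 2.30% of 17707 lower, so the shares are not directly comparable. With a term for the library subset, which called 8.65% of genes lower, the edgeR adjusted p was 0.00575. This p may be too small, because the term came from an earlier reading of the same libraries. The ratio of Uhrf1 to Dnmt1 within a library, on the log2 scale, averaged −1.02 ± 0.12 for WT (SD, n = 2) and −1.09 ± 0.13 for sKO (SD, n = 4). That difference of −0.06 was within the spread between libraries (exact two-sided permutation p = 0.667, adjusted p = 0.833 over 5 ratios).

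Dnmt3b, 1 of the de novo methyltransferases, was at 40.4 and 28.5 CPM in WT-1 and WT-2, and at 20.9, 15.8, 16.8 and 17.2 CPM in sKO-1 to sKO-4. The 4 sKO values lay close together, and WT-1 stood well above WT-2. The means were 34.4 ± 8.44 CPM (SD, n = 2) and 17.7 ± 2.21 CPM (SD, n = 4). On the log2 scale Dnmt3b fell by 0.96, with an SE of 0.18 and an edgeR adjusted p = 0.0390. The fall was −1.15 within subset 1 and −0.74 within subset 2. Its call held without WT-2 (adjusted p = 0.0406) and ended without WT-1 (0.368) or without any 1 of the 4 sKO libraries (0.0544 to 0.104), with upper-quartile factors (0.05225) and with Sertoli library sizes (0.05355, at −1.15).

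Dnmt3b has a rodent copy, Dnmt3c, which methylates young retrotransposons in fetal male germ cells. Of the stretches of 50 bases in Dnmt3c transcripts, 23.6% also occur in Dnmt3b, and 9.81% of those in Dnmt3b also occur in Dnmt3c. The division of reads in the shared stretches is uncertain. Dnmt3c was at 14.6 and 4.34 CPM in WT-1 and WT-2, and at 9.90, 13.1, 6.30 and 4.62 CPM in sKO-1 to sKO-4. It was high in all libraries of subset 1 and low in those of subset 2, whatever the genotype (log2 fold change −0.16, edgeR adjusted p = 0.948). With both genes summed, a choice made after seeing the data, the levels were 55.0 and 32.8 CPM in WT and 30.8, 28.9, 23.1 and 21.8 CPM in sKO-1 to sKO-4. The groups still did not overlap, but the log2 fold change of −0.75 did not pass the test (edgeR adjusted p = 0.182).

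**Figure D2:**
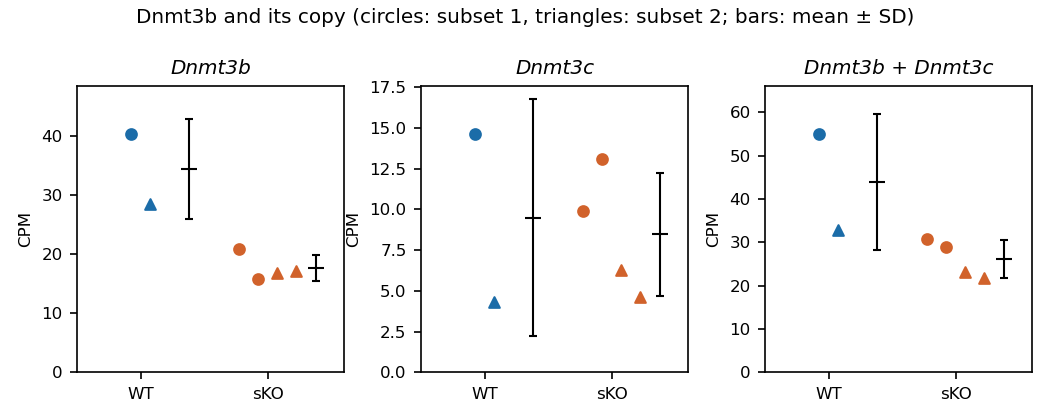
Level in CPM (vertical axes, from 0) of Dnmt3b, of its copy Dnmt3c and of their sum in each library; circles are subset 1, triangles subset 2, bars the mean ± SD. Dnmt3b separates by genotype and Dnmt3c by library subset. The sum separates by genotype, and subset 1 is the higher only within each genotype.

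Dnmt3a, the other de novo methyltransferase, was among the most abundant of the 9 by counts. It was at 239 and 190 CPM in WT-1 and WT-2, and at 236, 250, 214 and 203 CPM in sKO-1 to sKO-4. The groups overlapped, and the libraries of subset 1 were the higher ones in both. Its log2 fold change was 0.07 (edgeR adjusted p = 0.895), with a 95% interval of −0.23 to 0.37. Within a library the log2 ratio of Dnmt3b to Dnmt3a was −2.57 in WT-1 and −2.74 in WT-2, and −3.50, −3.98, −3.67 and −3.56 in sKO-1 to sKO-4. The sKO libraries were thus all lower, by 1.02 on average, and the ratio does not depend on library scaling. An exact two-sided permutation test over the 15 assignments gave p = 0.0667, the smallest this design allows (adjusted p = 0.333 over 5 ratios).

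Dnmt3l, the cofactor without catalytic activity, had expected counts of 12, 4, 9, 7, 1 and 2 in WT-1, WT-2 and sKO-1 to sKO-4. These correspond to 0.623, 0.225, 0.476, 0.375, 0.0578 and 0.116 CPM. Counts were below the filter of the reported test, and the groups overlapped. Without the filter the log2 fold change was −0.69 (SE 0.80, edgeR adjusted p = 0.795), and with DESeq2 it was −0.72 (adjusted p = 0.964), so a difference was not detectable at this depth. The log2 ratio of Dnmt3l to Dnmt3a averaged −9.15 ± 0.80 for WT (SD, n = 2) and −10.24 ± 1.33 for sKO (SD, n = 4), with an exact two-sided permutation p = 0.40 (adjusted p = 0.833 over 5 ratios). The higher values were those of subset 1 in both genotypes.

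The TET genes did not pass the test. Tet1 was at 27.8 and 21.1 CPM in WT-1 and WT-2, and at 31.2, 31.6, 27.6 and 31.1 CPM in sKO-1 to sKO-4. Only sKO-3 lay between the WT values. The log2 fold change was 0.31 (SE 0.14, edgeR adjusted p = 0.423), or 0.18 and 0.47 within the subsets. Leaving out WT-1 gave 0.52, and leaving out WT-2 gave 0.099.

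Tet2 was at 48.0 and 70.6 CPM in WT-1 and WT-2, and at 56.2, 59.1, 88.4 and 79.2 CPM in sKO-1 to sKO-4. The groups overlapped because the subset 2 libraries were higher in both. Within each subset both sKO libraries were above the WT library, by 0.26 and 0.24 on the log2 scale. The log2 fold change was 0.25 (SE 0.23, edgeR adjusted p = 0.743) without a term for the subset and 0.26 (SE 0.07, edgeR adjusted p = 0.0346) with it. Without that term it was 0.0022 when WT-1 was left out and 0.53 when WT-2 was. That term was taken from an earlier reading of the same libraries, so its p may be too small, and with it 4.97% of all genes were called higher and 8.65% lower.

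Tet3, the most abundant TET transcript, was at 181 and 160 CPM in WT-1 and WT-2, and at 183, 184, 191 and 191 CPM in sKO-1 to sKO-4. All sKO values were above WT, but sKO-1 and sKO-2 were barely above WT-1. The log2 fold change was 0.13 (SE 0.08, edgeR adjusted p = 0.593) and turned to −0.04 with Sertoli library sizes, which moved the typical gene by −0.16. The log2 ratio of Tet1 to Tet2 averaged −1.27 ± 0.67 for WT (SD, n = 2) and −1.20 ± 0.39 for sKO (SD, n = 4). That of Tet3 to Tet2 was 1.55 ± 0.52 and 1.43 ± 0.28. Neither ratio differed beyond the spread between libraries (exact permutation p = 0.867 and 0.600).

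Tdg, the glycosylase that removes oxidised methylcytosine, was at 58.2 and 85.0 CPM in WT-1 and WT-2, and at 64.8, 64.6, 88.5 and 82.7 CPM in sKO-1 to sKO-4. Like Tet2 it was higher in subset 2 whatever the genotype. Its log2 fold change was 0.07 (edgeR adjusted p = 0.936), with a 95% interval of −0.37 to 0.52. The pseudogene Tdg-ps shares 56.0% of its stretches of 50 bases with Tdg, and Tdg shares 29.4% of its own with Tdg-ps. With both summed the groups also overlapped (72.4 and 101.7 CPM in WT, 79.6 to 109.7 CPM in sKO).

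**Figure D3:**
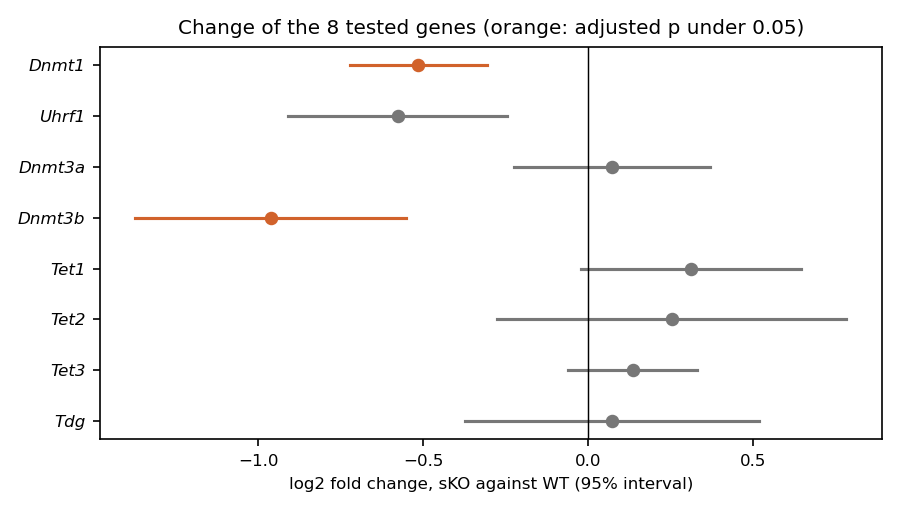
Log2 fold change of sKO against WT (horizontal axis) for the 8 genes tested, as points with their 95% intervals; orange marks an edgeR adjusted p under 0.05. Dnmt1 (−0.52) and Dnmt3b (−0.96) are marked, the interval of Uhrf1 lies below 0 without a call, and those of the other genes include 0.

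**Figure D4:**
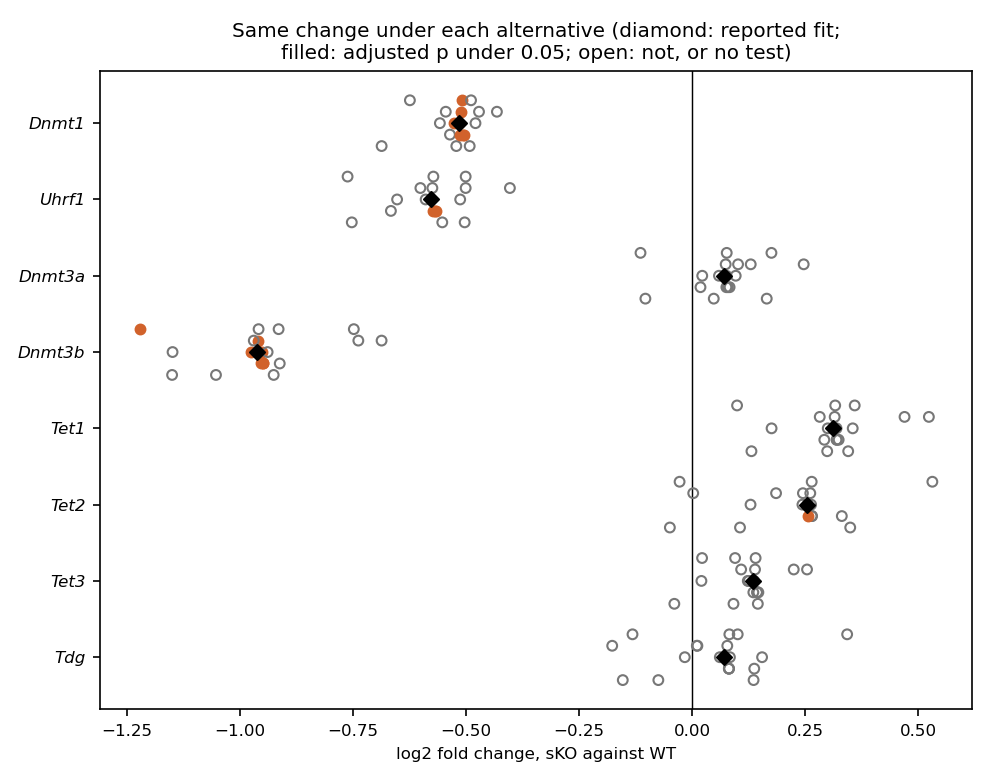
The same log2 fold changes (horizontal axis) in the reported fit (diamonds) and under each alternative (circles, spread vertically for legibility; filled where the adjusted p was under 0.05). Dnmt1, Uhrf1 and Dnmt3b stay below 0 in every alternative run, Tet1 stays above 0, and Dnmt3a, Tet2, Tet3 and Tdg fall on both sides.

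Levels per length order the genes differently from counts. Per kilobase of annotated exon, Dnmt1 (33.8 CPM per kb in WT) and Uhrf1 (28.9) led, and their WT values overlapped. Tdg (13.3) and Dnmt3a (12.9) followed, also overlapping, then Tet3 (10.2), whose values overlapped those of Tdg but not of Dnmt3a, then Dnmt3b (6.74), Tet2 (3.52), Tet1 (1.58) and Dnmt3l (0.142), each with WT values apart from the next. In sKO the mean of Dnmt3b (3.46 CPM per kb) lay below that of Tet2 (4.19), with overlapping values. The length used is that of all annotated exons together, which lowers the level per kb of genes with many alternative exons.

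Markers of germ cells were far lower in sKO than those of other cells. Their sum differed by −1.91 on the log2 scale. Of 16 germ cell markers 14 were called lower, where 2.30% of all genes tested were. Among them were the RNA-binding protein gene Dazl (−2.34) and Stk31 (−2.55). None of the 9 genes differed by as much. Relative to the summed germ cell markers, each of the 9 was therefore higher on average in sKO, by 0.96 for Dnmt3b, 1.34 for Uhrf1, 1.40 for Dnmt1 and 1.99 to 2.24 for Dnmt3a, Tdg, Tet3, Tet2 and Tet1 on the log2 scale. For Dnmt3l, at 1 to 12 counts, it was 0.90 with overlapping groups. Which cells of the testis supply each transcript, and the part of the germ cell markers in these differences, was not tested.

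Some genes of S phase and mitosis also fell. Of 18 tested, Ccnb1, the mitotic cyclin (−0.53, edgeR adjusted p = 0.0276), and Mcm7, a subunit of the replicative helicase (−0.45, edgeR adjusted p = 0.0473), fell and 0 others passed, with a median of −0.24. Among all genes tested, 2.30% were called lower. At an unadjusted edgeR p under 0.05 there were 10 of the 18, against 2317 of all 17707 genes in either direction. Without overlap, 10 were below WT, where 13.3% of all genes were. DESeq2 called 4 lower, adding Mcm3 and Mcm5, other helicase subunits named after their values were seen. Their summed level was 2781 CPM in WT-1 and 2654 in WT-2, and 2073 to 2431 in sKO. Relative to that sum, a ratio added after seeing the data, the log2 difference was −0.27 for Dnmt1, −0.33 for Uhrf1 and −0.70 for Dnmt3b. Values of all 4 sKO libraries were below both WT libraries for each of these ratios: Dnmt1 ran from −3.50 to −3.40 in WT and from −3.85 to −3.56 in sKO, Uhrf1 from −4.604 to −4.34 and from −5.02 to −4.605, and Dnmt3b from −6.54 to −6.11 and from −7.23 to −6.64. For Uhrf1 the groups nearly touch, and for Dnmt1 and Dnmt3b the gap between them is also narrow. The same ratio was higher in sKO for Dnmt3a (0.32), Tdg (0.33), Tet3 (0.38), Tet2 (0.50) and Tet1 (0.57). For Tet1 and Tet3 all sKO libraries were above both WT libraries, and for Dnmt3a, Tet2 and Tdg the groups overlapped. Dnmt3l, with few counts, was at −0.77 with overlap. How many of all genes separate in this ratio was not examined. The part of the proliferation genes in the fall of Dnmt1 was not tested.

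Among 14 tested partners of maintenance methylation, 3 fell and 0 rose, with a median of −0.16, where 2.30% of all genes tested were called lower. The 3 were Hells, Cdca7 and Cdca7l, and the products of the first pair form a chromatin remodeller that opens heterochromatin for methylation. Hells, its helicase, fell from 223 ± 6.48 CPM (SD, n = 2) to 128 ± 20.6 CPM (SD, n = 4), or −0.80 on the log2 scale (edgeR adjusted p = 0.0354). Cdca7, which activates HELLS, fell from 94.0 ± 7.22 to 53.7 ± 4.44 CPM (−0.81, edgeR adjusted p = 0.0139), and its relative Cdca7l from 52.2 ± 5.97 to 30.9 ± 1.33 CPM (−0.76, edgeR adjusted p = 0.0189). Dppa3, also on that list, was at the limit of detection and was not tested.

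Of 12 partners of de novo methylation in the germ line, 6 fell and 0 rose, with a median of −0.61. Among all genes tested, 2.30% were called lower. Morc1, a silencer of transposons, fell from 21.6 ± 3.99 to 4.51 ± 1.06 CPM (−2.26, edgeR adjusted p = 0.0110). The genes of the PIWI proteins that carry piRNAs also fell, Piwil2 (log2 fold change −2.55, edgeR adjusted p = 0.0110) and Piwil4 (−1.99, edgeR adjusted p = 0.0193). Mael, another piRNA pathway gene, was at −2.47 (edgeR adjusted p = 0.0139). The others were Spocd1 (−2.51) and the histone demethylase Kdm1b (−0.69), named after their values were seen. Levels were low for Spocd1 (means of 1.99 CPM in WT and 0.344 in sKO) and Piwil4 (4.62 and 1.16 CPM). Piwil2 and Mael are widely used as germ cell genes, and the summed germ cell markers, given above, were lower in the same 4 libraries; their part here was not tested.

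Readers of methylated CpG did not pass the test (0 of 8, median −0.003), among them Mbd3 (0.02). Of 19 tested TET partners, cofactor enzymes and base excision repair genes, 0 passed (median −0.05), with Ogt, which binds TET proteins, at −0.05 and Idh1, a source of the TET cosubstrate, at 0.18. With no adjustment, 1 reader and 7 of the demethylation genes had an edgeR p under 0.05, against 2317 of all 17707 genes, and DESeq2 called 0 and 2 (Ung and Parp1, both lower, named after their values were seen). Of 10 genes for the supply and turnover of S-adenosylmethionine, the methyl donor, 1 fell, where 2.30% of all genes tested were called lower. Shmt1, which feeds carbon into the folate cycle, went from 60.1 ± 4.82 to 41.7 ± 2.30 CPM (−0.53, edgeR adjusted p = 0.0398).

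**Figure D5:**
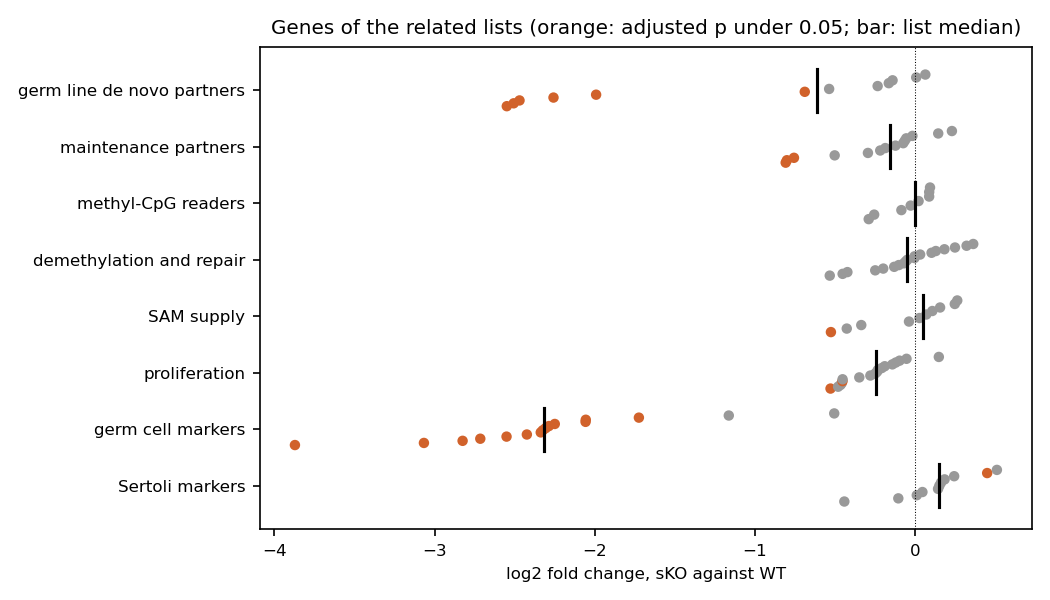
Log2 fold change of sKO against WT (horizontal axis) for each tested gene of 8 lists, 1 point per gene, orange where the edgeR adjusted p was under 0.05; black bars are list medians. The 6 called de novo partners spread from −2.55 to −0.69, towards the germ cell markers (median −2.32), while the called maintenance partners lie near −0.8.

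Markers of somatic cells had medians nearer 0. Of 11 Sertoli markers 1 rose (Amh, 0.45) and 0 fell, with a median of 0.15; 3 had an unadjusted p under 0.05, and DESeq2 called Amh higher and Cldn11 lower (−0.43, adjusted p = 0.0264). Of 7 peritubular smooth muscle markers 1 fell (Cnn1, −1.73, at 2.92 CPM in WT) and the median was −0.27. Of these, 3 were below WT without overlap, each with an unadjusted p under 0.05 (Cnn1, Myh11 and Tagln), and DESeq2 also called Myh11 lower (−0.53, adjusted p = 0.0377). Cldn11, Myh11 and Tagln are named after their values were seen. The Leydig (7 genes, median 0.27), endothelial (7, 0.27), macrophage (7, −0.04) and erythroid (6, 0.39) markers held 0 calls in edgeR, with 0, 0, 0 and 3 at an unadjusted p under 0.05, and DESeq2 called 1 erythroid gene, Hba-a1, higher. Without overlap, 4 Sertoli, 1 Leydig, 3 endothelial and 3 erythroid markers were above WT, and 1 Sertoli marker was below. Among all genes tested, 9.79% were above and 13.3% below without overlap. In edgeR 0.124% were called higher and 2.30% lower, and 2317 of 17707 had an unadjusted p under 0.05. Summed erythroid markers were 402 and 401.5 CPM in WT and 486.6 to 708.6 CPM in sKO, and their part in the results was not tested.

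The genes whose levels followed Dnmt1 most closely over the 6 libraries were Angel1, Shmt1 and Xlr5a (Pearson r of log2 CPM 0.998 for each). For Dnmt3b they were Scaper (0.999), Haspin (0.997) and Acd (0.995). With 6 libraries, 737 of 13182 genes had r above 0.9 with Dnmt1 and 601 with Dnmt3b, and the genes named are the 3 highest for each.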

How the data were processed

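The authors deposited 1 table of expected counts per gene, of which 19.4% are not whole. The submitters' processing notes name fastp, STAR, RSEM and the build mm39; the sources used here give no versions, annotation or strand setting. Symbols came from GENCODE M21 (GRCm38), which matched 90.5% of the identifiers. Expected counts were rounded, filtered with filterByExpr (minimum count 10), scaled by TMM and compared with edgeR 4.0.16 (R 4.3.3), two-sided, Benjamini-Hochberg over all 17707 genes, threshold 0.05, no covariate. SE is the log2 fold change over the root of F. The steps were tested on simulated data. Groups follow the titles, 2 WT and 4 sKO; the series text states 3 per group. Replicates within a group differed by a chi-square of 4.08 to 24.7 per gene (about 1 from sampling alone). It was 4.08 for sKO-3 with sKO-4 and 6.84 for sKO-1 with sKO-2, the pairs within a subset. Pairs across the subsets were at 20.3 to 24.7. Each library counted once in the reported fit, and whether libraries of the same subset are independent was not tested.

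The genes and lists were chosen with earlier results of these data known. The text names the 9 genes, up to 4 called genes of each list (with none, the 2 most abundant), and the 3 genes most like each of the 2 genes with the smallest p; exceptions are marked, and 1 gene that the rule names is not reported here. Alternatives were DESeq2 1.42.0, limma-voom (limma 3.58.1), other size factors and filters, and left-out libraries. Further alternatives were the replicate number as a block and a term for the library subset. The subset term came from an earlier reading of the same libraries, so p-values with it may be too small wherever they are counted.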

Additional observations from a re-analysis of the deposited data

Results flagged for a closer look

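Tet1 in the sKO group had 1 library apart from the others: sKO-3 was at 27.6 CPM, and the other sKO libraries were at 31.1 to 31.6 CPM. The gap was 0.871 of the group's range, above the 95% critical value of Dixon's test for 4 samples. Chance flags about 1 in 20 such groups, and 14 values were examined.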

How the results depend on the processing

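Dnmt1, Uhrf1 and Dnmt3b kept their direction under every alternative run (18, 18 and 19), with adjusted p under 0.05 in 7, 3 and 7 of the 16, 16 and 17 that give a p. Of the 9 genes, 2 were called lower in the reported fit, 1 with upper-quartile factors, 0 with Sertoli library sizes and 0 to 1 when a library was left out; with the subset term 3 were lower and 1 higher. Over all genes, left-out libraries gave 1 (without WT-1) to 225 lower and 2 to 7 higher, DESeq2 652 lower and 82 higher, the subset term 1531 and 880, and Sertoli library sizes 7 higher. With the replicate number as a block over the 4 libraries numbered 1 and 2, 268 genes were lower and 0 of the 9 were called (Dnmt1 adjusted p = 0.139, Dnmt3b 0.0518); without the block 187 were lower, 9 higher and 0 of the 9 were called. Only 2 numbers are shared, and their deviations correlated at 0.416 and −0.441, so the numbers were not taken as pairs. Sertoli sizes moved the median of all genes by −0.16, and with it Dnmt3a to −0.10, Tet3 to −0.040 and Tdg to −0.075. Directions also turned for Dnmt3a (−0.11 without WT-2), Tet2 (−0.028 with the block, −0.049 without it) and Tdg (−0.13 with the block, −0.15 without it, and −0.18 to 0.34 with left-out libraries, below 0 without WT-1 or sKO-3); the cause was not tested. With left-out libraries the ratio of Uhrf1 to Dnmt1 ran from −0.15 to 0.021, Tet1 to Tet2 from −0.41 to 0.54 and Tet3 to Tet2 from −0.48 to 0.25. Relative to a germ cell list without Kit, Uchl1, Sall4 and Zbtb16, the differences were 1.88 (Dnmt1), 1.82 (Uhrf1), 2.47 (Dnmt3a), 1.45 (Dnmt3b), 2.72 (Tet1) and 2.53 (Tet3). A lone WT library was taken to vary as sKO does. Of the 9 genes, counts limit Dnmt3l alone.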
